A study of Ovis aries with 2 samples.

Results

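SHOX encodes a homeodomain transcription factor that takes part in the growth of the long bones, and it lies in the pseudoautosomal region (PAR), the part of the sex chromosomes in which X and Y still recombine. Here the CpG sites around the copy on the sheep Y-chromosome are described. The members are all CpG sites between positions 270001 and 340000 of chromosome Y in the assembly ARS-UI_Ramb_v3.0, a window of 70 kb that holds 3011 of the 372890 CpG sites of the chromosome. The window was chosen by its low methylation in these same data, so its methylation is a description without a test. DNA came from the lung of a single fetus of a Churro sire and a Friesian dam at 100 days of gestation, with no treatment, and was read once as PacBio HiFi and once as Oxford Nanopore (ONT) data. With 1 animal, the 2 platforms are technical repeats, no comparison between groups of animals could be made, and nothing here measures variation between animals, sexes or tissues.

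In mammalian DNA, most cytosines that precede a guanine (CpG sites) carry a methyl group, while CpG-dense gene starts (CpG islands) mostly do not. Around some genes of development, above all genes of transcription factors, the unmethylated stretch is much longer than an island and takes in the whole gene. Such stretches are known as methylation valleys or canyons. SHOX is known for its action in the cartilage of the limbs, and loss of a copy in humans causes short stature. Genes of this kind often lie in such valleys also in tissues in which they are silent, and no transcript levels were analysed here.

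SHOX, on the plus strand from 300796 to 311939, lay in its entire length inside a stretch of low methylation in this lung sample. The low-methylation valley around it reached from 293190 to 313784, a length of 20595 bp with 1292 CpG sites. It was defined as the longest run of CpG sites at which the mean over 25 neighbouring sites was under 30% on both platforms. Its methylation was 5.13% ± 6.45 (SD between CpG sites, n = 1292) on PacBio and 2.83% ± 3.64 on ONT, with medians of 3.3% and 1.95%. The remaining 1719 CpG sites of the window had 77.1% ± 22.4 and 66.0% ± 19.0. Valley minus remainder was -72.0 percentage points on PacBio and -63.2 points on ONT. The valley was cut out by these same values, so a large gap was set in advance and is a description only. Within the valley the 2 platforms differed by 2.31 points.

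Pooled over calls, 6626 of 243408 valid ONT calls in the valley were methylated, which is 2.72% (95% Wilson interval 2.66 to 2.79). The share of methylated calls on PacBio was 3.53% of 45985 (3.36 to 3.70), from read numbers that the calling software estimates. Intervals and limits of this kind cover counting error only, and reads that span several CpG sites make neighbouring sites dependent.

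**Figure D1:**
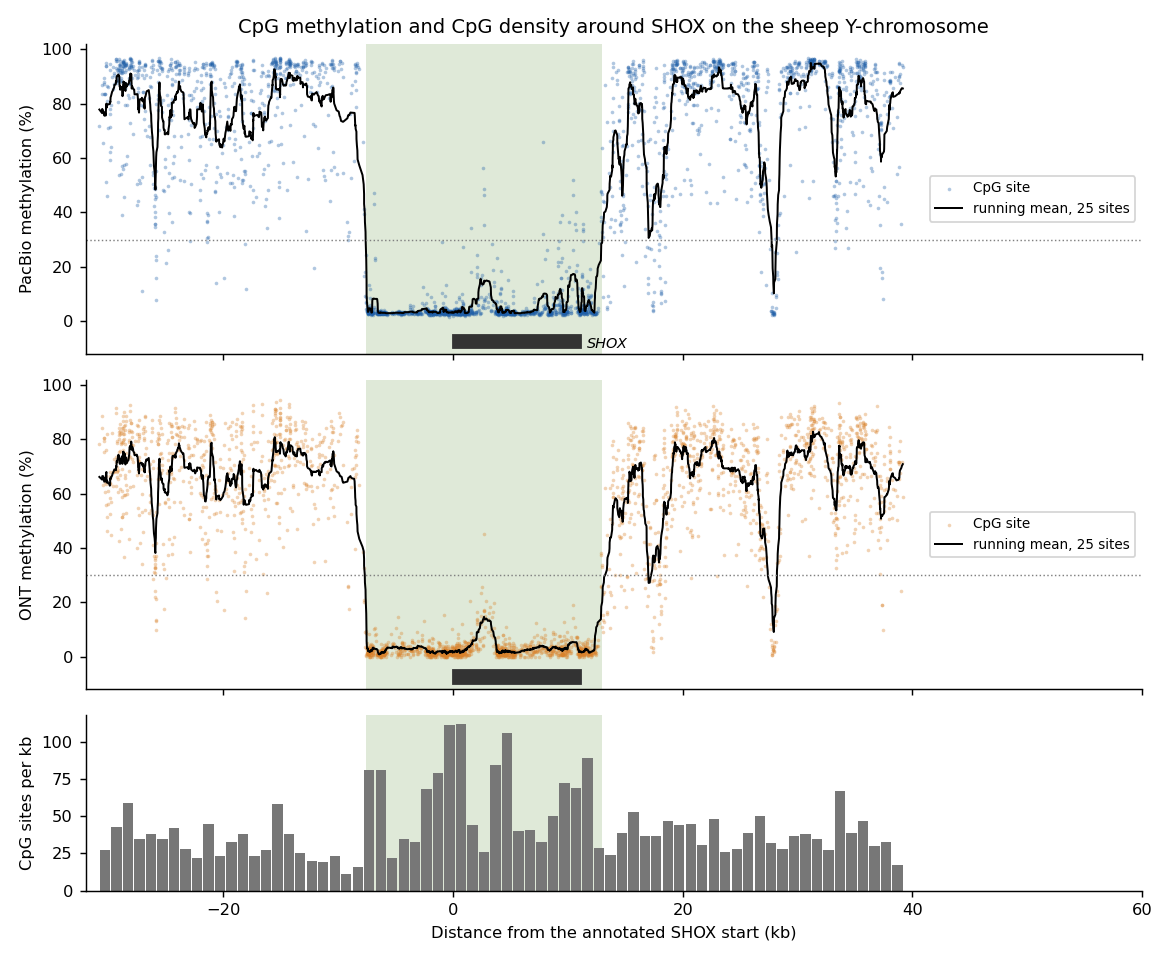
Methylation (%) of each CpG site on PacBio (upper) and ONT (middle) with the running mean over 25 sites (line), and the number of CpG sites per kb (lower), against the distance from the annotated SHOX start in kb. The valley (shaded) covers the gene (dark bar) and 7606 bp before it, the dotted line marks 30%, and the running mean beside the valley returns to levels mostly above 50% on both platforms.

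The valley was not centred on the gene. It began 7606 bp before the SHOX start and ended 1845 bp after its end, so 36.9% of its length lay before the gene, 54.1% within it and 8.96% after it. No other annotated gene overlapped the window. The nearest protein-coding genes were PPP2R3B, which encodes a regulatory subunit of protein phosphatase 2A, 180672 bp to the left of the valley, and CRLF2, which encodes a chain of the receptor for the cytokine TSLP, 310826 bp to the right.

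Along the valley, the part before the gene had the lowest mean. Its 483 CpG sites had 3.81% ± 3.55 on PacBio and 2.20% ± 2.09 on ONT. Within 500 bp of the annotated SHOX start, 109 CpG sites had 3.28% ± 0.673 on PacBio and 1.94% ± 1.60 on ONT, and no site there was above 7.0% on PacBio or 10.2% on ONT. The 684 CpG sites of the gene itself had 5.51% ± 6.98 and 3.15% ± 3.79. The 125 sites between the end of the gene and the end of the valley had 8.22% ± 9.92 and 3.46% ± 6.25. Sites close to the border weigh on these means, and the medians after the gene were 4.2% and 1.85%, the latter below the ONT median of 2.07% in the gene. On both platforms the means of these 3 parts lay closer together than the SD between the sites of the gene. Positions of exons and introns were not used here.

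Single CpG sites inside the valley were almost uniformly low. Of the 1292 sites, 1173 (90.8%) were under 10% on both platforms, against 1.34% of the sites in the remainder of the window and 4.43% of those in the PAR outside the valley. No valley site was over 50% on both platforms, whereas 79.5% of the sites in the remainder of the window were. The valley was defined by low running means, so these contrasts are a description only. At 76 valley sites, none of the ONT calls was methylated. The median number of valid calls at these sites was 198, at which a count of 0 allows a level of up to 1.52%. In the remainder of the window 0 sites had no methylated ONT call. PacBio values have a floor, and the lowest in the valley was 1.7%.

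In 1-kb bins, 22 of the 70 bins of the window were under 30% on both platforms. Over the whole chromosome 5.7% of bins were, and in the PAR 2.4%, but since low methylation chose this window the count is a description only. PacBio values of the 19 bins fully inside the valley lay between 2.91% and 13.4%, and ONT values between 1.56% and 13.6%. The 23 bins fully to the left of it lay between 60.2% and 90.1% and between 48.4% and 76.8%. No bin there overlapped the valley in value, which the definition of the valley largely sets. Of the 26 bins fully to the right, 1 was under 30% on both platforms, from 328001 to 329000, with 26.9% on PacBio and 20.9% on ONT. It contains a run of 448 bp with 19 CpG sites at 7.52% and 7.11%, the nearest low run to the valley, 14758 bp beyond its end. No annotated gene starts there.

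The border before the gene was steep. The running mean rose from 10% to 50% within 255 bp on PacBio and 839 bp on ONT. Counted from the first site of the valley, the CpG site at -554 bp had a level of 92.9% on PacBio and of 63.3% on ONT. At -273 bp, the levels were 65.9% and 38.5%. They were 16.5% and 32.5% at -172 bp, so the fall was not smooth on PacBio, and at -136 bp they were 39.6% and 20.3%. The last site outside, at -11 bp, had 7.1% and 0.472%, and the first site inside had 8.7% and 0.455%. CpG sites are sparse here, with 7 in the 500 bp outside the border against 55 in the 500 bp inside it, so the running mean places this border only to within a few sites.

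The border after the gene was wider and uneven. The running mean needed 1276 bp on PacBio and 1454 bp on ONT to rise from 10% to 50%. Values were low up to the site at 313391, with 4.7% on PacBio and 3.96% on ONT, and reached 28.7% and 12.2% at the next site, at 313484. The last site inside the valley had 32.7% and 11.1%, and the first one outside, 12 bp away, had 63.8% and 33.8%. Beyond it high and low sites alternated. The site 278 bp outside had 86.8% and 62.2%, and that at 446 bp had 5.3% and 15.7%.

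**Figure D2:**
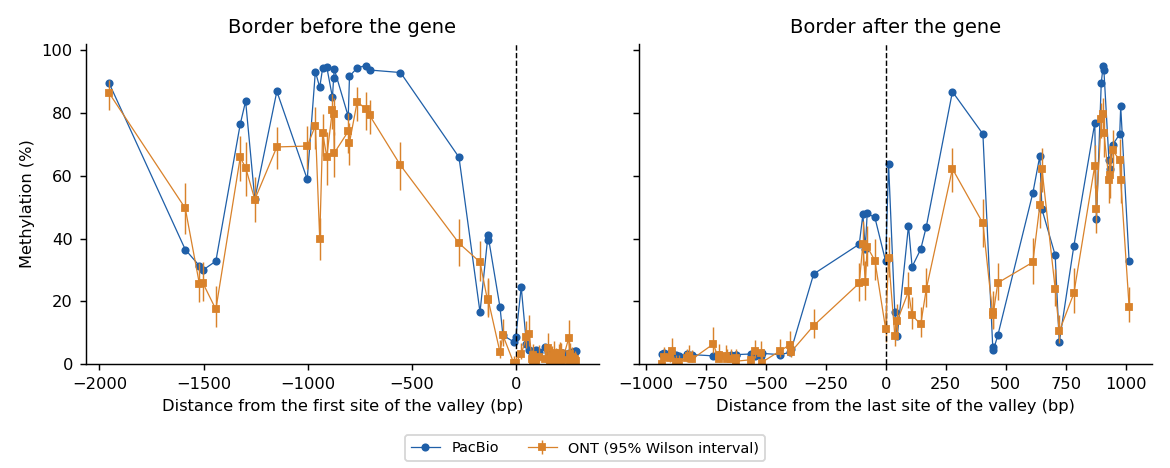
Methylation (%) of the 30 CpG sites on each side of the border before the gene (left) and after it (right), against the distance in bp from the first or last site of the valley (dashed line). Points are single sites on PacBio (circles) and ONT (squares, with 95% Wilson intervals for counting error), and in the left panel values fall over the last few sites before the dashed line, while the right panel has low and high sites on both sides of it.

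Farther out, which side was lower changed with the distance. In the 500 bp next to the border, the left side had 28.2% ± 21.5 on PacBio and 17.9% ± 14.3 on ONT (7 sites), and the right side 35.3% ± 28.1 and 24.7% ± 15.5 (12 sites). From 500 to 1000 bp outside, methylation was 91.3% ± 4.71 on PacBio and 72.0% ± 11.6 on ONT on the left (13 sites), and 62.7% ± 23.8 and 53.6% ± 20.8 on the right (16 sites). From 1 to 2 kb the sides were alike, with 57.9% ± 24.7 and 52.5% ± 22.8 on the left and 54.9% ± 20.6 and 53.1% ± 14.5 on the right. From 2 to 5 kb outside, the left side had 83.5% ± 16.8 and 70.8% ± 12.5, and the right side 67.2% ± 26.8 and 54.8% ± 22.8. From 5 to 10 kb outside, the right side had reached 80.4% ± 20.4 and 69.5% ± 17.1, beside 84.6% ± 15.4 and 73.5% ± 13.5 on the left. From 10 to 20 kb outside, the left side had 75.3% ± 21.1 and 65.3% ± 18.1, and the right side 77.7% ± 25.4 and 65.0% ± 21.4. At 500 to 1000 bp the right side was lower by more than the SD between its own sites on PacBio, and by less on ONT. At 2 to 5 kb and at 5 to 10 kb it was lower by less than this SD on both platforms. On the right side, the bin from 318001 to 319000 had 38.3% on PacBio and 31.1% on ONT.

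The valley was not entirely flat. The highest 1-kb bin fully inside it, from 303001 to 304000 within the gene, had 13.4% ± 15.2 on PacBio and 13.6% ± 8.97 on ONT over 26 CpG sites. With the outer 500 bp on each side of the valley left out, where the running mean takes in sites beyond the border, the ONT running mean peaked in it at 14.7%, 2698 bp after the SHOX start. On PacBio the peak, likewise without the outer 500 bp, was elsewhere, near the end of the gene, at 17.4% and 10474 bp after the start. At 303471, in the bin of the ONT peak, 82 of 181 ONT calls were methylated, 45.3% (95% Wilson interval 38.2 to 52.6), and PacBio gave 48.6% from 37 calls. The other sites of the bin had at most 25.7% on ONT, while on PacBio 3 sites next to it were also raised, with 56.3% at 303449, 35.3% at 303461 and 46.5% at 303463. The site at 303471 is the only one of the valley over 30% on both platforms apart from 3 in its last 95 bp. Those 3 had 33.0% to 38.3% on ONT.

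Toward the end of the gene, single sites with a high PacBio value alone became more frequent. Up to the midpoint of SHOX, PacBio gave 4.77% ± 5.58 and ONT 3.22% ± 4.40. From the midpoint to the end of the gene, PacBio gave 6.68% ± 8.63 and ONT 3.05% ± 2.56. The medians were 3.3% and 1.93% before the midpoint and 3.6% and 2.51% after it, so the difference between the platform medians did not widen. PacBio put 26 valley sites over 30% and ONT put 4 there. At 14 sites PacBio was over 30% while ONT was at most 10%, and the reverse was seen at 0 sites. Of these 14, 12 lay beyond the midpoint of the gene. Of all 1292 valley sites, 265 lay between the midpoint and the end of the gene and 125 after it. The share of such sites over the PAR is not given here. The most discordant site, at 308641, had 65.8% on PacBio from 29 calls, and 6 of 184 calls on ONT, which is 3.26% (1.5 to 6.93).

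PacBio depth fell along the valley, while the mean platform difference changed unevenly. A CpG site in the outermost kb of the valley before the gene had a median of 49 valid PacBio calls, and one in the outermost kb after the gene had 23. The mean PacBio minus ONT difference was 2.99 points in the first of these parts and 3.55 points in the second. It was 1.55 points up to the midpoint of the gene (median depth 34) and 3.63 points from there to its end (26). At the 14 discordant sites the median depth was 24.5, against 37 in the valley as a whole. ONT depth did not follow, with medians of 199 and 195.5 in the same 2 outermost parts. The part of PacBio depth in the discordant values was not tested.

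**Figure D3:**
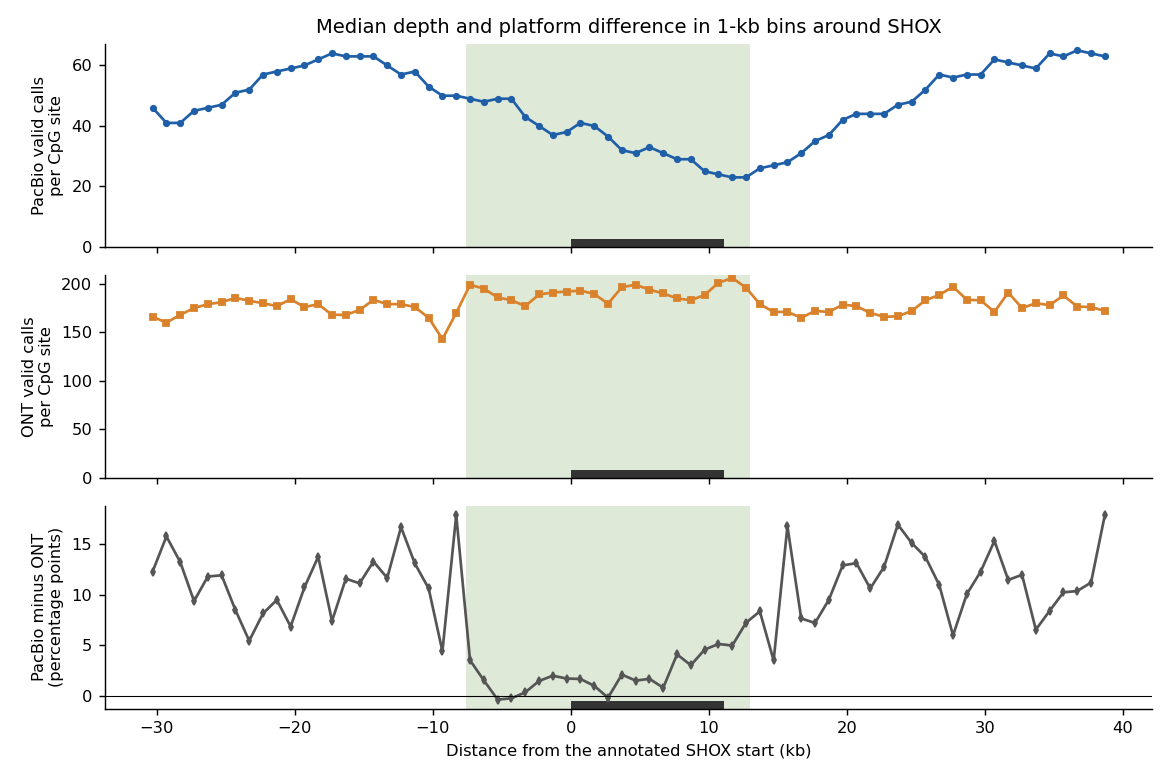
Valid calls per CpG site (median of the bin) on PacBio (upper) and ONT (middle), and the PacBio minus ONT difference in mean methylation (lower, percentage points), in 1-kb bins against the distance in kb from the annotated SHOX start. The shaded valley and dark gene bar show where PacBio depth falls to 23 while ONT depth stays at 177 or more, and where the difference in bin means is larger toward the end of the gene.

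The median depth per CpG site was 44 calls on PacBio and 183 on ONT in the window, and 37 and 193 in the valley. The PAR as a whole had 60 and 169, and the male-specific region had 39 and 89. Reads of the X-chromosome copy of SHOX may be among those counted here, since the alignment target is not fully stated, and the methylation of the X and Y copies cannot be told apart. PacBio was above ONT by 2.31 points ± 5.65 (SD between sites) in the valley and by 11.1 points ± 11.7 in the remainder of the window. PacBio gave the higher value at 78.6% of valley sites, beside 85.5% in the remainder of the window and 85.4% in the PAR. The share of ONT calls between the 2 calling thresholds, which enter no percentage, was 9.56% in the valley and 16.3% in the remainder of the window. With ONT strands kept apart, the valley mean was 2.90% on the plus strand and 2.93% on the minus strand.

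CpG sites were dense in the valley. It held 62.7 sites per kb, beside 34.8 in the remainder of the window, 22.0 in the PAR and 11.6 in the male-specific region. The valley was thus 1.80 times as dense as the sequence next to it, which itself was above the PAR average. The density was highest at the gene start, with 111 CpG sites from 300001 to 301000 and 112 in the following kb. It was not dense throughout. Of its 19 full bins, 10 held at least 60 CpG sites, in 4 places (near the left edge, around the gene start, inside the gene and around the gene end), and 5 held fewer than 40. The sparsest, from 295001 to 296000, held 22 sites and had 2.91% methylation on PacBio and 3.28% on ONT, while the next sparsest, with 26 sites, was the bin from 303001 to 304000 with the highest values. The largest gap between neighbouring CpG sites in the valley was 238 bp and the median gap was 9 bp.

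In the PAR outside the valley, low bins were more frequent among dense bins, so the valley bins are set beside PAR bins by class of CpG number. Both valley bins with 10 to 30 CpG sites were low, while 40 of the 5035 other PAR bins of that class were, or 0.794%. The median of those PAR bins was 79.1% on PacBio and 68.4% on ONT. All 7 valley bins with 31 to 59 CpG sites were low, as were 56 of the 1084 other PAR bins of that class, or 5.17%, whose medians were 83.4% and 72.9%. Of the 29 such bins of the window beside the valley, 1 was low. All 10 valley bins with 60 or more CpG sites were low, and so were 47 of the 128 other PAR bins of that class, or 36.7%. The medians of those PAR bins were 82.8% on PacBio and 71.7% on ONT. The valley bins were among the members chosen for low methylation, so these counts are a description. Across the 70 bins of the window, the number of CpG sites and methylation had a Pearson r of -0.53 on PacBio and -0.54 on ONT (Spearman rho -0.28 and -0.31). Over the 49 bins beside the valley, r was 0.11 and 0.14. Over the 19 bins inside it, r was -0.24 on PacBio and -0.48 on ONT (rho 0.03 and -0.70), so the platforms differed there. Over all 6995 bins of the PAR, r was -0.10 on PacBio and -0.08 on ONT. There rho had the opposite sign, 0.24 and 0.26. These are correlations over bins of 1 chromosome that share reads, given as a description.

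**Figure D4:**
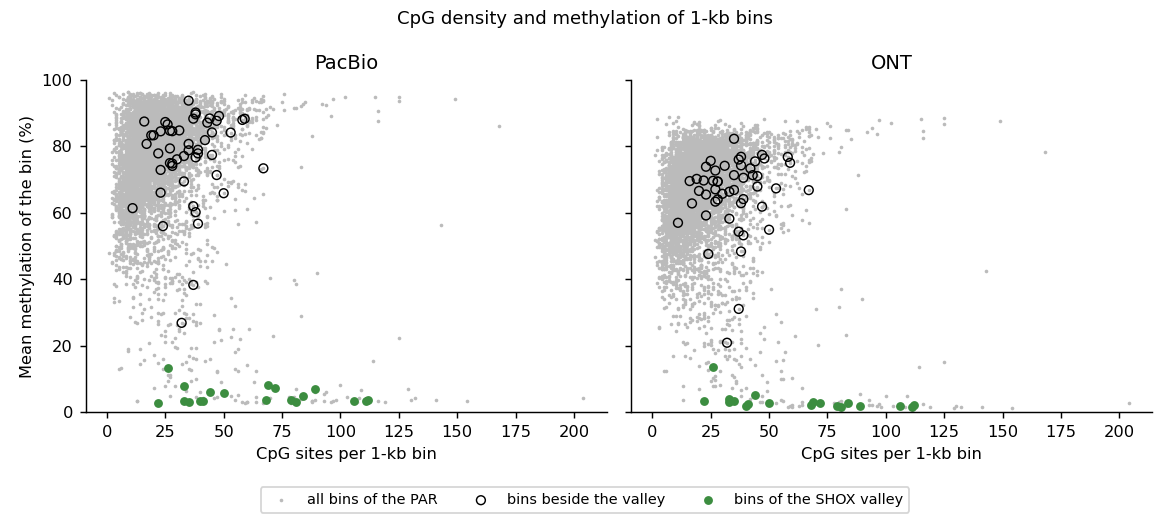
Mean methylation (%) of 1-kb bins on PacBio (left) and ONT (right) against the number of CpG sites in the bin, for all bins of the PAR (grey), bins of the window beside the valley (open circles) and bins fully inside the SHOX valley (green). The 19 green bins lie under 14% over the range from 22 to 112 CpG sites, and most open circles lie above 50%.

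By the same rule, 198 low runs were found on the chromosome, 95 of them in the PAR. The SHOX valley was the longest and held the most CpG sites. The next longest in the PAR had 6193 bp, so the SHOX valley was 3.33 times as long. The second on the whole chromosome, in the male-specific region, had 13191 bp with 11.5 CpG sites per kb and 19.3% methylation on PacBio and 16.2% on ONT. Low runs took up 1.84% of the PAR, and 16.0% of that length belonged to SHOX. The rank on the whole chromosome depends on the rule and was 2 to 17 under 5 of 10 alternatives, where sparse runs of the male-specific region were longer. In the PAR, and by number of CpG sites on the chromosome, SHOX was first under all 10. Among the 84 other runs of at least 1 kb, 25 had lower methylation than the SHOX valley on PacBio and 22 on ONT, so it was not the lowest.

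**Figure D5:**
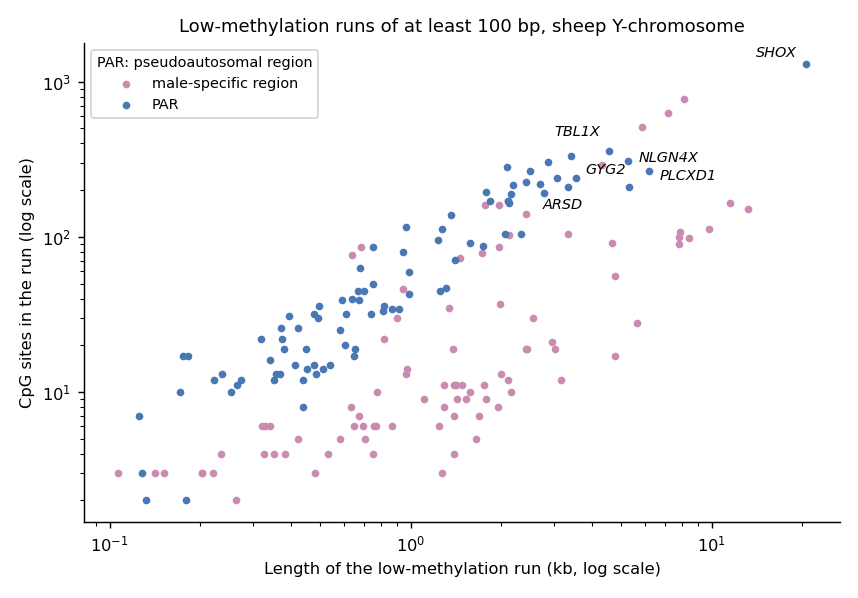
Number of CpG sites against length in kb (both on log scales) of each low-methylation run of at least 100 bp, in the PAR (blue) and the male-specific region (pink). SHOX stands at the upper right with 1292 CpG sites over 20.6 kb, and the labelled runs hold the starts of the protein-coding PAR genes with the 5 longest other runs at such a start, of which that labelled ARSD also holds the start of ARSH.

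Of the 45 protein-coding genes annotated in the PAR, 27 had their start in a low run, SHOX among them. SHOX was the only one of the 45 that its run covered from start to end. The runs at the other starts had a median of 2304 bp and ranged from 736 to 6193 bp. After SHOX, the longest of these lay at PLCXD1, which carries a phospholipase C domain, with 6193 bp and 14.7% methylation on PacBio and 11.8% on ONT. The run at NLGN4X, which encodes a cell adhesion protein of synapses, had 5279 bp with 5.26% and 2.66%. TBL1X, which encodes a component of a transcriptional corepressor complex, had 4556 bp with 5.85% and 2.19%. GYG2, a glycogenin that primes glycogen synthesis, had 3539 bp with 7.88% and 5.80%, and ARSD, a member of the arylsulfatase family, had 3336 bp with 3.73% and 2.56%, in a run that also holds the start of ARSH, another arylsulfatase gene.

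At the start itself, the level of SHOX lay among those of these genes. Within 500 bp of the start, the 26 other genes in low runs had medians of 4.34% on PacBio and 1.89% on ONT, beside 3.28% and 1.94% for SHOX. Lower values than at SHOX were found at 6 of the 26 on PacBio and at 14 on ONT. The 6 on PacBio lay between 2.93% and 3.27%, near the floor of that platform, so this order carries little weight. The start of PPP2R3B, the left neighbour, had 3.27% and 1.71% in a run of 1780 bp. The start of CRLF2, the right neighbour, lay in no low run and had 48.8% and 45.9%.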

How the data were processed

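CpG methylation was measured in lung DNA of 1 sheep fetus on 2 platforms. For PacBio, the authors called methylation with Primrose, aligned the reads with pbmm2 and deposited the percent of methylation per CpG site that the model of pb-CpG-tools gives, with the read count behind it and estimated counts of methylated and unmethylated reads. The ONT signal was basecalled by the authors in Dorado and aligned with Winnowmap, and the deposited columns give, per strand, counts of methylated and unmethylated calls (modbam2bed thresholds of 80% and 20%) and of calls in between. A deposited score column served only to check the layout. Positions are 1-based (second column plus 1).

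Both strands were summed for ONT. At least 5 valid calls per site were required, and 0 sites fell below. Region values are means over CpG sites. The valley is the longest run, among those overlapping the window, of sites whose running mean over 25 sites was under 30% on both platforms, with interruptions of up to 1 kb bridged (0 within the valley). The run caller was tried on simulated data with flat planted runs, abrupt edges and independent sites. Such data differ from these, so the trial does not bear on the uneven border or on the ranks. Genes are those of the study's annotation list, which follows NCBI's, since the RefSeq gene table used here lists SHOX on the X-chromosome only. Genes named were SHOX, its nearest protein-coding neighbours and the 5 other protein-coding PAR genes with the longest runs at their start, with ARSH, which shares the run of ARSD. No genome sequence was used. The window, the lists and the rules were chosen with earlier results of these data known. No p-value was taken, since sites of 1 animal share reads. Python 3.11.15, NumPy 2.4.6, pandas 2.3.3, statsmodels 0.14.6 and matplotlib 3.10.9 were used.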

Additional observations from a re-analysis of the deposited data

How the results depend on the processing

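No paired analysis was possible because there is 1 animal and no result comes from a test. Of 66 values under an alternative, 60 stayed within the SD between the platforms (methylation) or within 1.5 times (lengths, ranks, densities), and 0 reversed. Some alternatives could hardly change the valley, so these counts overstate its stability. A minimum of 20 calls drops 0 of its sites, and bridging was used 0 times within it. The valley kept covering all of SHOX under 10 of 10 alternatives, with its first site between 293054 and 293271, its last between 313391 and 314426, and a length of 20137 to 21373 bp. Its length rank on the chromosome was 1 and became 4 with a threshold of 40%, 17 with a threshold of 50%, 2 with a running mean of 51 sites, 2 with bridging up to 3 kb and 3 with ONT alone, where runs of the male-specific region were longer. With the median over sites, PacBio methylation of the valley was 3.3% in place of 5.13%. Ranks within the PAR and by number of CpG sites were added after seeing the data, and all of them are among the 60 that stayed. No replicate could be left out, since each platform has 1 library. PacBio depth, down to 22 calls at a valley site, limits single-site values most toward the end of the gene.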

Other observations

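Between PPP2R3B and CRLF2, a stretch of 512093 bp in which SHOX is the only annotated gene start in a low run, 15 more low runs were found, 4 to the left of the SHOX valley and 11 to its right. They were short, from 1 CpG site to 2335 bp. The longest on the left, from 216085 to 218419, had levels of 4.19% on PacBio and 5.02% on ONT over 105 CpG sites. Another on that side, from 228838 to 230417, had 3.65% and 3.37% over 91 sites. The longest on the right, from 376901 to 378951, had 4.62% and 4.05% over 105 sites. These 3 levels are close to those of the valley, in runs that are far shorter. None of the 15 holds an annotated gene start, and what lies at them was not examined.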
